A study of Mus musculus with 2 samples.

Results

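Replication-dependent histone genes encode the linker histone H1 and the core histones H2A, H2B, H3 and H4 that package newly made DNA. Their short fragments were counted in small RNA libraries of Dicer f/f and Dicer -/- mouse cells. The members are the 67 protein-coding genes of the mouse annotation whose symbols begin Hist1h, Hist2h, Hist3h or Hist4h, out of 21924 protein-coding genes. They comprise 6 H1, 18 H2A, 18 H2B, 12 H3 and 13 H4 genes, of which 54 lie on chromosome 13, 10 on chromosome 3, 2 on chromosome 11 and 1, Hist4h4, on chromosome 6. A read counted when it was at least 18 nt long and lay in sense, without mismatch, in a transcript of a member. A read found in several members counted once. By this rule 811 of 9943989 reads were histone reads in the f/f library and 2829 of 6291599 in the Dicer -/- library, called null below.

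The f/f library came from a clonal immortalized line of mesenchymal stem cells of strain C57BL/6, fibroblast-type cells of the adult bone marrow, whose Dicer alleles carry the f/f label. The null library came from a Dicer -/- clonal line of the same kind and strain. Both lines were grown in medium with 10% serum until nearly confluent and carry the immortalization. Dicer is the enzyme that cuts hairpin precursors into mature microRNAs. Each genotype is 1 clone and 1 library, so no difference below has a replicate check, no test was made, and clone and genotype cannot be told apart. All intervals are 95% intervals for counting error only, and PCR copies are not independent molecules.

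Histone mRNAs of this kind are the metazoan mRNAs that end without a poly(A) tail. Their 3′ end is a conserved stem-loop, bound by the stem-loop binding protein Slbp, and it is made by a cut just downstream of the stem-loop. That cut is positioned by the U7 small nuclear RNA, whose 5′ end pairs with a purine-rich stretch of the precursor called the histone downstream element. The mRNAs accumulate while DNA is replicated and are broken down when replication stops. During their decay uridines are known to be added at the 3′ end.

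The stem-loop was searched in sense as the last match of a 16-base motif that forms a stem of 6 pairs and a loop of 4 bases. Its letters are GG, any 2 bases, CTT, any base, T, any base, AG, any 2 bases and CC. It was found in 46 of the 67 genes, with 3 to 4884 annotated bases after it. The other 21 include 11 whose annotated model holds only the coding part. Below are the 3 commonest forms, shown because the read ends are measured from their last base; capitals mark the stem.
Form in 26 genes: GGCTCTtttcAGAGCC
Form in 7 genes, all of them H4 genes: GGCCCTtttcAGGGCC
Form in 6 genes: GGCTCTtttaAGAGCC

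Among the whole-matching reads that overlap the stem-loop, these were the commonest of each library. They show the ragged start and the near-constant end; capitals mark the stem-loop motif. All coordinates are GRCm38.
Hist1h2bh, chr13:23542925-23542948, minus strand: ccaaaGGCTCTTTTCAGAGCCact
Hist1h4d, chr13:23581947-23581968, plus strand: aaaGGCCCTTTTCAGGGCCact
Hist1h4h, chr13:23531447-23531476, plus strand: acaaaaccaaaGGCCCTTTTCAGGGCCgcc
Hist1h4c, chr13:23698086-23698109, minus strand: caaaaGGCCCTTTTCAGGGCCacc
The Hist1h2bh read was counted 13 times in f/f and 5 times in null, and the Hist1h4d read 12 and 7 times. The Hist1h4h read was counted 0 times in f/f and 14 times in null, and the Hist1h4c read 0 and 10 times. A count of 0 allows up to 0.302 counts per 1000000 reads of the library (CPM) in f/f and 0.477 in null (3 counts). All of these reads lie in the 3′ UTR, and all end 3 bases after the motif.

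Other histone reads lay wholly downstream of the stem-loop, in annotated 3′ UTR. Whether they came from the piece that the cut removes or from longer mRNA forms was not tested. The commonest histone read of both libraries was of this kind. The first bases of U7 RNA and the downstream stretch of 6 members, bases 6 to 35 after the motif, are shown because the reads cluster there. Capitals mark the longest run of a member that is complementary to U7, counting Watson-Crick pairs only, and in U7 the run complementary to Hist1h1e.
U7 RNA (Rnu7), 5′ end: aagtgttACAGCTCTTTTAg
Hist1h1e, chr13:23621747-23621776, minus strand: caactctcagTAAAAGAGCTGTtgcacatt
Hist2h3c2, chr3:96238450-96238479, minus strand: agcttcccggAAAGAGCTGTttacttcgct
Hist1h1c, chr13:23739533-23739562, plus strand: tcccacttAAGAGCTGTgacatttgtgtga
Hist2h3c1, chr3:96247348-96247377, plus strand: agcttcccggAAAGAGCTattcagcttttt
Hist4h4, chr6:136803963-136803992, minus strand: agcatcagaaagGAGCTGTggacatttgta
Hist1h4c, chr13:23698054-23698083, minus strand: caaattcctaggagttgttCACTTaccgaa
Reads inside the stretches of 3 of these members follow, in lower case throughout: the 2 commonest of Hist4h4 and the commonest of Hist2h3c2 and of Hist1h1c.
Hist4h4, chr6:136803964-136803985: gaaaggagctgtggacatttgt
Hist4h4, 1 base longer at the start, chr6:136803964-136803986: agaaaggagctgtggacatttgt
Hist2h3c2, chr3:96238450-96238476: ttcccggaaagagctgtttacttcgct
Hist1h1c, chr13:23739540-23739560: taagagctgtgacatttgtgt
The 22-nt Hist4h4 read was counted 35 times in f/f and 53 times in null, 3.52 and 8.42 CPM. Its longer form was counted 10 and 32 times, the Hist2h3c2 read 0 and 22 times, and the Hist1h1c read 4 and 13 times. Both Hist4h4 reads span the complementary run. Other Hist4h4 reads there started at base 7 (3 in f/f and 21 in null) or base 14 (4 and 17) and ended at base 34 as well.

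The level of histone fragments was higher in the null library. Histone reads made up 81.6 CPM (76.0 to 87.4) in f/f and 449.6 (433 to 467) in null, a null to f/f ratio of 5.51 (5.10 to 5.97). Fragments of mRNA in general were also more frequent in null: reads of all other protein-coding genes had a ratio of 5.93. A single gene, Tmem38b, held 31.7% of those reads in f/f and 6.05% in null. Without it the ratio of the other protein-coding genes was 8.16 (8.08 to 8.24). Per read of all other protein-coding genes, a planned scale, the histone ratio was 0.930 (0.860 to 1.006), an interval that includes equal levels. Per read of these genes without Tmem38b, a scale chosen after the data were seen, histone reads were lower in null, at 0.675 (0.624 to 0.731). Per snoRNA and snRNA read they were higher, at 1.28 (1.19 to 1.39). In RNA from whole cultures, more cells with a transcript cannot be told apart from more RNA per cell. The direction of the histone level depends on the scale, and ratios below are of CPM unless another scale is named.

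The libraries hold 430 distinct histone sequences in f/f and 986 in null, 1351 in all, and 65 occur in both. Some histone reads also match an unrelated gene, 129 in f/f and 227 in null. Among them is a GT repeat, gtgtgtgtgtgtgtgtgtg, in the long 3′ UTR of Hist1h1d, counted 14 and 4 times. Without such reads 682 and 2602 remained, and the ratio was 6.03 (5.54 to 6.57). Every member had at least 1 compatible read, but only 54 had a read found in no other protein-coding gene, since copies within a class are nearly identical. The 13 without one were Hist1h2aa, Hist1h2ag, Hist1h2an, Hist1h2ao, Hist1h2ba, Hist1h2bf, Hist1h2bl, Hist1h2bq, Hist1h3h, Hist1h4k, Hist1h4m, Hist2h2aa2 and Hist3h2ba. Hist1h2aa and Hist1h2ba, known as testis genes, are among these.

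By class, ratios ran from 3.52 for linker histone H1 to 8.63 for H2A. H1 reads numbered 159 in f/f and 354 in null, 15.99 and 56.3 CPM, a ratio of 3.52 (2.91 to 4.27). Without reads that match unrelated genes, which include the Hist1h1d repeat, the H1 ratio was 4.73 (3.77 to 5.97). H2A, which with H2B forms the dimers of the nucleosome, had 80 and 437 reads, 8.05 and 69.5 CPM, a ratio of 8.63 (6.79 to 11.1). H2B had 150 and 524 reads, 15.1 and 83.3 CPM, a ratio of 5.52 (4.60 to 6.67). H3 and H4, which form the central tetramer, had 131 and 555 reads (ratio 6.70, 5.53 to 8.16) and 267 and 935 reads (ratio 5.53, 4.83 to 6.37). The intervals of H1 and H2A did not overlap, while those of H2B, H3 and H4 did overlap each other. Without reads that match outside the members, H3 was lowest at 4.19 (3.29 to 5.39), and the intervals of H1 (4.73, 3.77 to 5.97) and H2A (8.40, 5.83 to 12.4) overlapped. By gene cluster, the Hist1 genes had 555 and 1561 reads (ratio 4.45, 4.03 to 4.91) and the Hist2 genes 115 and 707 (ratio 9.72, 7.97 to 11.9), intervals that did not overlap. The Hist3 genes had 17 and 42 reads (ratio 3.90, 2.18 to 7.32), and Hist4h4 had 89 and 336 (ratio 5.97, 4.71 to 7.63).

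**Figure D1:**
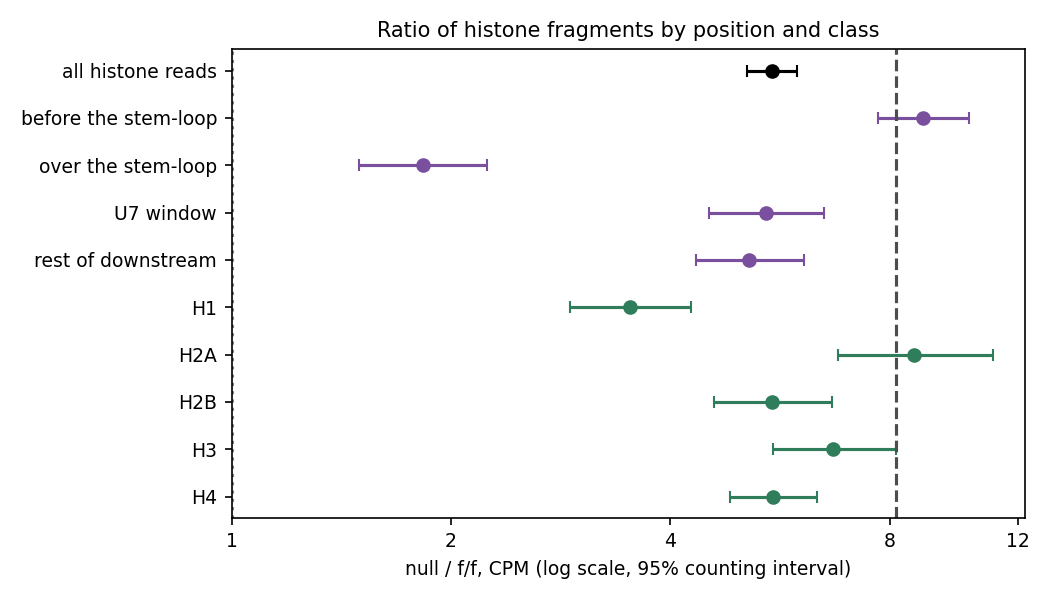
Null to f/f ratio of histone CPM (log axis) by position in the mRNA and by histone class; points are ratios, bars 95% counting intervals, the dashed line marks the ratio of other protein-coding genes without Tmem38b, 8.16. Reads over the stem-loop lie at 1.83, left of every other position, and reads before it at 8.89.

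By position in the mRNA, ratios ran from 1.83 over the stem-loop to 8.89 before it. Reads that end before the stem-loop, over the body of the mRNA, numbered 226 in f/f and 1271 in null, 22.7 and 202 CPM, a ratio of 8.89 (7.71 to 10.3). Reads overlapping the stem-loop numbered 183 and 212, 18.4 and 33.7 CPM, a ratio of 1.83 (1.495 to 2.24). Reads that start after it numbered 337 and 1122, 33.9 and 178 CPM, a ratio of 5.26 (4.65 to 5.96). Of the reads whose position could be set, 24.5% (21.5 to 27.8, Clopper-Pearson) overlapped the stem-loop in f/f and 8.14% (7.12 to 9.26) in null. Before the stem-loop the shares were 30.3% (27.0 to 33.7) and 48.8% (46.9 to 50.7). The ratio of other protein-coding genes without Tmem38b, 8.16, lies inside the interval of the body reads. With Tmem38b it was 5.93, which lies below that interval and inside that of the downstream reads. Both values lie above the interval of the stem-loop reads. With each distinct sequence counted once, the ratio was 4.78 before the stem-loop and 1.63 over it.

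Within the body of the mRNA, the coding part held most reads, 191 in f/f and 936 in null, a ratio of 7.75 (6.62 to 9.10). The 5′ UTR held 36 and 205 reads (ratio 9.0, 6.29 to 13.2), and reads across the border of a UTR and the coding part numbered 37 and 261 (ratio 11.1, 7.88 to 16.2). The 3′ UTR, before the stem-loop or in models without the motif, held 27 and 68 (ratio 3.98, 2.51 to 6.47). These parts were set for all members with a coding part, including those without the motif. The commonest body read of null lies in the coding part of 16 H2A genes and is shown as an example of a read that no gene can be given; it also matches transcripts outside the members.
H2A coding read, 1 in f/f and 21 in null: cctggagctggcgggcaacgcggcccgcga

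**Figure D2:**
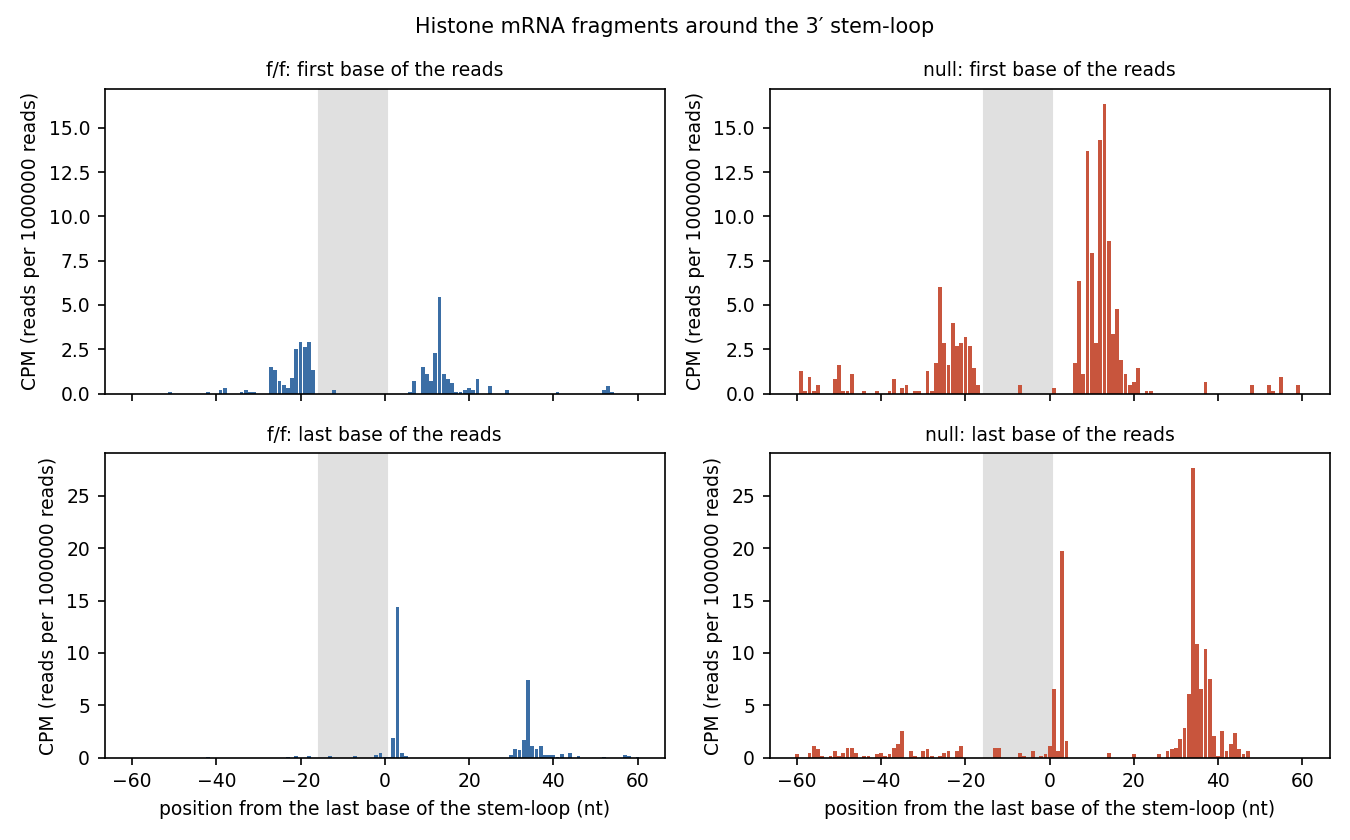
First bases (top) and last bases (bottom) of whole-matching histone reads in CPM, by position in nt from the last base of the stem-loop, for f/f (left) and null (right); grey marks the stem-loop. Last bases pile up at 3, where f/f has 14.4 and null 19.7 CPM, and again near 34, where f/f has 7.44 and null 27.7.

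Stem-loop reads ended at nearly the same base in both libraries. Of the 183 in f/f, 143 ended 3 bases after the motif (78.1%, 71.4 to 83.9), as did 124 of 212 in null (58.5%, 51.5 to 65.2). Ends 1 base after the motif were 1 read in f/f and 41 in null (19.3%, 14.2 to 25.3), and ends 2 bases after it were 19 and 4 reads. Ends inside the motif numbered 13 and 30. Most of these reads hold the whole motif, 169 and 186. Their starts differed: in f/f 70.4% (62.9 to 77.2) began 2 to 6 bases before the motif, against 36.02% (29.1 to 43.4) in null. Starts 7 to 12 bases before it were 27.8% (21.2 to 35.2) and 58.6% (51.2 to 65.8). The f/f reads were thus shorter at the 5′ side, while the commonest end was shared.

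The members gave stem-loop reads in different numbers in the 2 libraries. Hist1h4d gave 30 in f/f and 12 in null, and Hist1h3b 19 and 0, counting reads found in no other member. Hist1h4h gave 3 and 31, Hist1h4c 10 and 18, and Hist1h2bh 16 and 26. By class, stem-loop reads of H1 numbered 10 in f/f and 0 in null, of H2A 16 and 44, of H2B 60 and 53, of H3 24 and 32, and of H4 55 and 69. The ratio of H2A was 4.35 (2.40 to 8.25) and that of H2B 1.40 (0.946 to 2.05).

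The base at the end limits these gene and class names. Of the reads ending 3 bases after the motif, 89 of 143 in f/f and 55 of 124 in null ended in T. Without that last base, 83 and 51 of them would match more members than with it. A T copied from the gene and a T added to the RNA of another member cannot be told apart in such reads, so that the counts for Hist1h4d, Hist1h2bh and Hist1h3b are uncertain. The other member can be of another class, as with H2B and H2A genes. The stem-loop counts and ratios by class are therefore uncertain as well.

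A further set of stem-loop reads matched a member except for 1 to 3 last bases, all T, where the gene has another base. Such untemplated T tails were on 94 of 289 reads over the stem-loop in f/f (32.5%, 27.2 to 38.3) and on 175 of 408 in null (42.9%, 38.03 to 47.9). Here the denominator holds the whole-matching reads and all tailed reads. Whole-matching reads whose last T may be an added one, 83 in f/f and 51 in null, count as untailed. Which library has the higher share of T tails over the stem-loop is thus not settled. In 83 and 152 of the T-tailed reads (88.3% and 86.9%) the matched part ended 2 bases after the motif, so the added T took the place of the base 3 after it. Most tails were 1 base, 82 and 169 reads. Examples from different members, each counted at least 12 times over both libraries, show the exchanged last base; the capital marks the untemplated T.
Hist1h2ag, 9 in f/f and 11 in null: caacaaaggctcttttcagagccacT
Hist1h4c, 5 and 12: acaaaaggcccttttcagggccacT
Hist1h2ab and Hist1h2ag, 11 and 7: aacaaaggctcttttcagagccacT
Hist2h3c1 and Hist2h3c2, 0 and 12: ttccccacaaaggctcttttcagagccacT
Hist1h4h, 2 and 10: aaaccaaaggcccttttcagggccgcT
Tailed reads are not in the whole-match counts above. With reads that match once their last bases are left off, whatever those bases are, the stem-loop reads numbered 289 and 408 and the ratio was 2.23 (1.91 to 2.60).

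Of the T-tailed histone reads, 94 of 99 in f/f and 175 of 223 in null lay over the stem-loop. Elsewhere, outside the window described next, T tails were on 5 of 498 reads in f/f (1.004%, 0.327 to 2.33) and 46 of 2342 in null (1.96%, 1.44 to 2.61). Tails of A, C or G over the stem-loop numbered 1, 1 and 0 in f/f and 1, 2 and 0 in null. Over all histone reads, the T-tailed share was 10.3% (8.47 to 12.4) in f/f and 6.59% (5.77 to 7.47) in null. That order is the reverse of the one counted over the stem-loop, where f/f has the lower share. The order over the stem-loop is not settled, since whole-matching reads whose last T may be an added one count as untailed. Stem-loop reads are a larger part of the f/f histone reads, as given above. For other protein-coding genes a single sequence held 51.8% of the T-tailed reads in f/f and 28.9% in null, so no comparison of T tails with them was made.

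**Figure D3:**
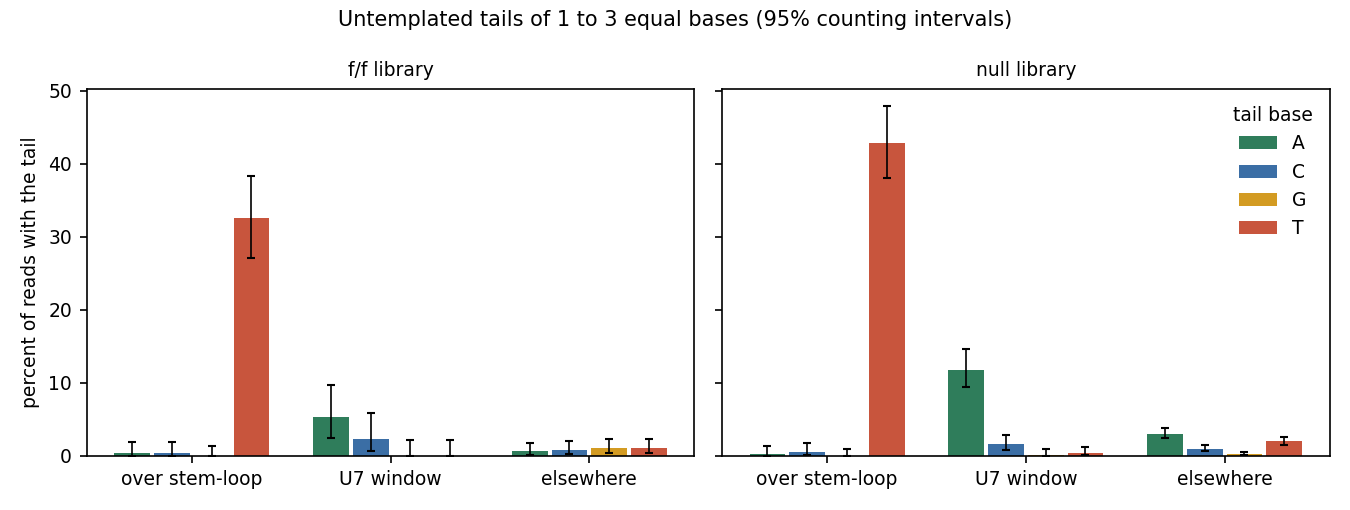
Percent of histone reads with an untemplated tail of 1 to 3 equal bases, by tail base and position, in f/f (left) and null (right), with 95% counting intervals. T tails stand at 32.5% and 42.9% over the stem-loop, and A tails lead in the U7 window, at 5.23% and 11.8%.

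The downstream reads were counted in a window chosen after the data were seen: starts 6 to 25 bases and ends 26 to 45 bases after the motif, called the U7 window here. It held 158 reads in f/f and 541 in null, 15.9 and 86.0 CPM, a ratio of 5.41 (4.52 to 6.50). As a share of the positioned histone reads it was 21.2% (18.3 to 24.3) and 20.8% (19.2 to 22.4), intervals that overlap. The median start was base 13 in f/f and 12 in null, and the median end base 34 and 35. Base 34 alone held the ends of 74 reads in f/f and 174 in null. Hist4h4 gave 72 and 282 of the window reads. Without Hist4h4 the window held 86 and 259, a ratio of 4.76 (3.72 to 6.15).

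Members of every class gave window reads, in uneven numbers. H1 genes gave 29 in f/f and 70 in null, H2A 5 and 16, H2B 1 and 18, H3 28 and 98, and H4 95 and 339. After Hist4h4, the most came from Hist2h3c2 (13 and 56), Hist1h1c (22 and 53), Hist1h2bg (1 and 17), Hist1h4c (6 and 17), Hist2h3c1 (4 and 16), Hist1h3g (5 and 15) and Hist2h4 (9 and 14). The annotation extends through the window in 29 members, and 22 of these had window reads in either library. Hist1h2be, Hist1h2bh and Hist1h4h cover the window as well. The first of these had 0 window reads in both libraries, Hist1h2bh also 0, and Hist1h4h 1 in f/f and 0 in null, although Hist1h4h had 3 and 31 stem-loop reads. Reads at the 2 places thus came in different proportions from different members.

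In 21 of the 29 covered windows (72.4%) there was a run of at least 6 bases complementary to the first 20 bases of U7 RNA. The last 40 bases of the longest transcript, a stretch of the same length, held such a run in 20.7% of 21880 other protein-coding genes. That total differs from the 21857 other protein-coding genes of the member definition, and the reason was not examined. A run of at least 8 was found in 8 of 29 (27.6%) and in 0.946% of the others. The longest, of 12 bases, was that of Hist1h1e, with 3 window reads in f/f and 9 in null, and Hist4h4, with most reads, has a run of 7. A match of letters is a description and not a site. U7 RNA itself (chr6:124741225-124741286, minus strand, 62 nt) gave 104 reads in f/f and 327 in null, a ratio of 4.97 (3.97 to 6.26).

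Window reads carried other tails than stem-loop reads. T tails were on 0 of 172 reads in f/f (upper bound 2.12%) and 2 of 636 in null (0.314%, 0.0381 to 1.13). A tails were on 9 (5.23%, 2.42 to 9.70) and 75 (11.8%, 9.39 to 14.6). Among histone reads outside both places, A tails were on 3 of 498 (0.602%) and 71 of 2342 (3.03%). Over other protein-coding genes without Tmem38b, A tails were on 4.72% (4.58 to 4.86) and 4.49% (4.42 to 4.56) of reads. The window share of f/f lies at this level and that of null above it. The denominators of this level include the commonest T-tailed sequence of each library, 12618 of 84601 reads in f/f and 11323 of 337483 in null. The level is thus lowered unequally in the libraries.

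Histone fragments were longer in null, as mRNA fragments were in general. The median length was 22 nt in f/f (quartiles 20 and 25) and 24 nt in null (21 and 27). Reads of 24 nt or longer were 36.9% (33.5 to 40.3) and 54.6% (52.8 to 56.5) of the histone reads. For other protein-coding genes without Tmem38b the medians were 21 and 24 nt and the shares 33.7% and 52.8%. The deposited reads stop at 36 nt, where longer inserts are cut off, and lengths 34 and 35 are nearly empty, with 366 and 0 reads in the whole f/f library and 2508 and 0 in null. Read length thus cannot show fragments above the read's own limit.

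**Figure D4:**
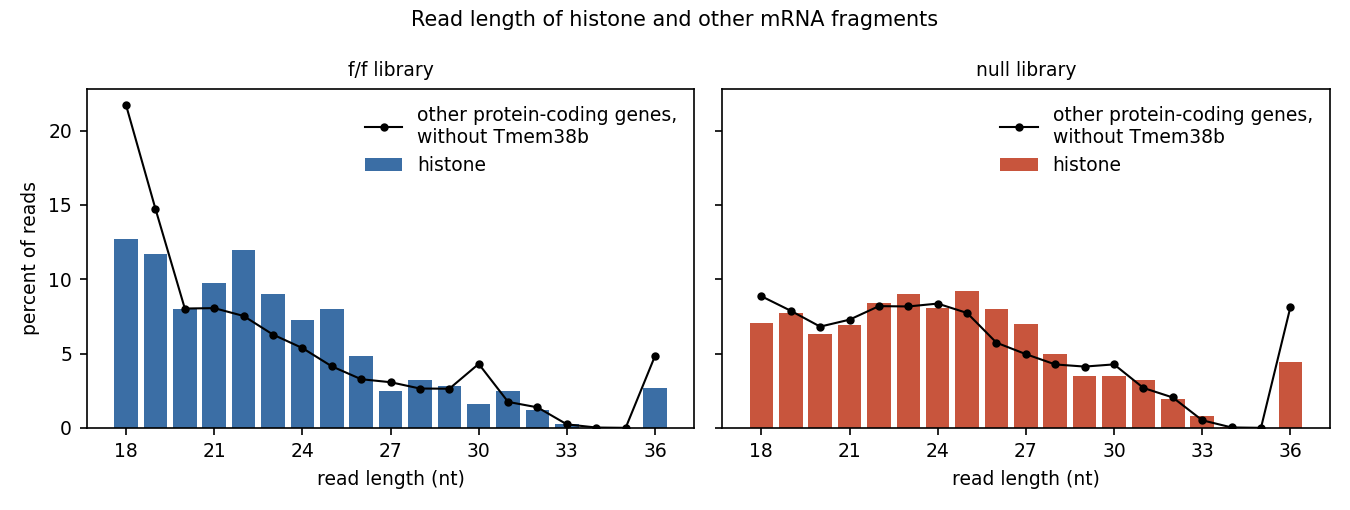
Percent of reads by read length in nt for histone reads (bars) and for other protein-coding genes without Tmem38b (line), f/f left and null right. In f/f 12.7% of histone reads are 18 nt long, against 21.7% of the others; in null the histone bars and the line run close together, with 7.03% and 8.86% at 18 nt.

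Length followed position. Body reads had medians of 21 nt in f/f and 23 nt in null, stem-loop reads 24 and 26 nt, and U7 window reads 22 and 24 nt. Reads of 21 to 23 nt were 56.3% (48.2 to 64.2) of the window reads in f/f and 34.8% (30.7 to 38.9) in null. For Hist4h4 alone this share was 80.6% (69.5 to 88.9) and 43.6% (37.7 to 49.6), and without Hist4h4 it was 36.05% (25.97 to 47.1) and 25.1% (19.9 to 30.8). The intervals of the libraries do not overlap for Hist4h4 and do overlap for the other members, and whether these gaps differ was not tested. By reads, Hist4h4 had 58 of 72 window reads of 21 to 23 nt in f/f and 123 of 282 in null. Stem-loop reads also had a lower share of these lengths in null, 38.3% (31.2 to 45.7) in f/f and 20.3% (15.1 to 26.3) in null. Over other protein-coding genes without Tmem38b it was 21.9% and 23.6%.

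Gene by gene, 27 members had at least 20 reads found in no other protein-coding gene, in both libraries together. Of these, 25 were more than 2-fold higher in null (92.6%), 1 was lower and 1 lay between. The background is close: 98.9% of the 3400 protein-coding genes tested in the same way were more than 2-fold higher in null and 0.147% lower. The median ratio was 6.18 over the 27 members and 14.2 over all 3400 genes. The 20-read filter is on the sum of both libraries, so genes with few f/f reads passed only through null. This tends to raise the filtered counts and medians, here and in the gene lists below. Per read of other protein-coding genes without Tmem38b, 5 members were higher, 5 lower and 17 between, against 43.6% higher and 8.44% lower over all genes. Per snoRNA and snRNA read, 9 were higher and 3 lower, against 69.6% and 1.29%.

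Hist4h4, an H4 gene that stands alone on chromosome 6 (chr6:136801553-136804415), had 86 gene-unique reads in f/f and 336 in null, 8.65 and 53.4 CPM, a ratio of 6.18 (4.86 to 7.92). Hist2h4 had 23 and 131 (ratio 9.002, 5.75 to 14.7). Among the linker histone genes, Hist1h1c had 36 and 106 (ratio 4.65, 3.16 to 6.99), Hist1h1e 19 and 76 (ratio 6.32, 3.78 to 11.1) and Hist1h1d 20 and 65 (ratio 5.14, 3.07 to 8.95). The neighbouring H3 genes Hist2h3c1 and Hist2h3c2 had 10 and 85 (ratio 13.4, 6.96 to 29.0) and 17 and 72 (ratio 6.69, 3.91 to 12.1). In these H4, H1 and H3 genes most reads found in no other member lay after the stem-loop: in Hist4h4 79 and 298, and in Hist1h1c 30 and 74. Stretches that members share cannot give such reads. Hist2h3c1 and Hist2h3c2 share body reads and had 0 of their own before or over the stem-loop in both libraries. Those of Hist1h1d include reads that also match unrelated genes, such as the GT repeat. Where such reads lie thus depends in part on which stretches are unique.

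Other well-covered members differed among themselves. Hist1h4c had 25 and 69 unique reads (ratio 4.36, 2.72 to 7.20), Hist1h4h 7 and 65 (ratio 14.7, 6.73 to 37.9) and Hist1h2bh 18 and 52 (ratio 4.57, 2.63 to 8.29). The highest ratios were those of Hist1h2bb with 1 and 32 reads (50.6, 8.45 to 2059), Hist1h2be with 3 and 76 (40.04, 13.2 to 198) and Hist2h3b with 1 and 19 (30.03, 4.77 to 1248), each resting on 1 to 3 f/f reads. In Hist1h2bb, all unique reads lay before the stem-loop, 1 and 32, and 14 of those in null were copies of the sequence below, from the 5′ UTR (chr13:23746756-23746779, plus strand), counted 0 times in f/f.
Hist1h2bb, 5′ UTR: ccagtttctgaccattttgtgtgt

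The lowest ratios were those of Hist1h3b with 19 and 4 reads (0.333, 0.0823 to 1.001), Hist1h4d with 39 and 45 (1.82, 1.16 to 2.88) and Hist1h1b with 9 and 12 (2.11, 0.815 to 5.66). All 19 f/f reads of Hist1h3b and 30 of the 39 of Hist1h4d lay over the stem-loop, where the last base T leaves the gene uncertain. Among the 27, the highest levels per kb of transcript in f/f were those of Hist1h4d (3.45 CPM per kb), Hist1h3b (3.08), Hist1h4c (3.07) and Hist4h4 (3.02). In null they were those of Hist1h4h (21.98), Hist4h4 (18.7) and Hist2h2bb (17.5). By this measure the leading members differed between the libraries. The f/f values of Hist1h4d and Hist1h3b rest mostly on stem-loop reads of uncertain gene. The measure divides gene-unique reads by the length of the longest transcript, so it depends in part on which stretches are unique.

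**Figure D5:**
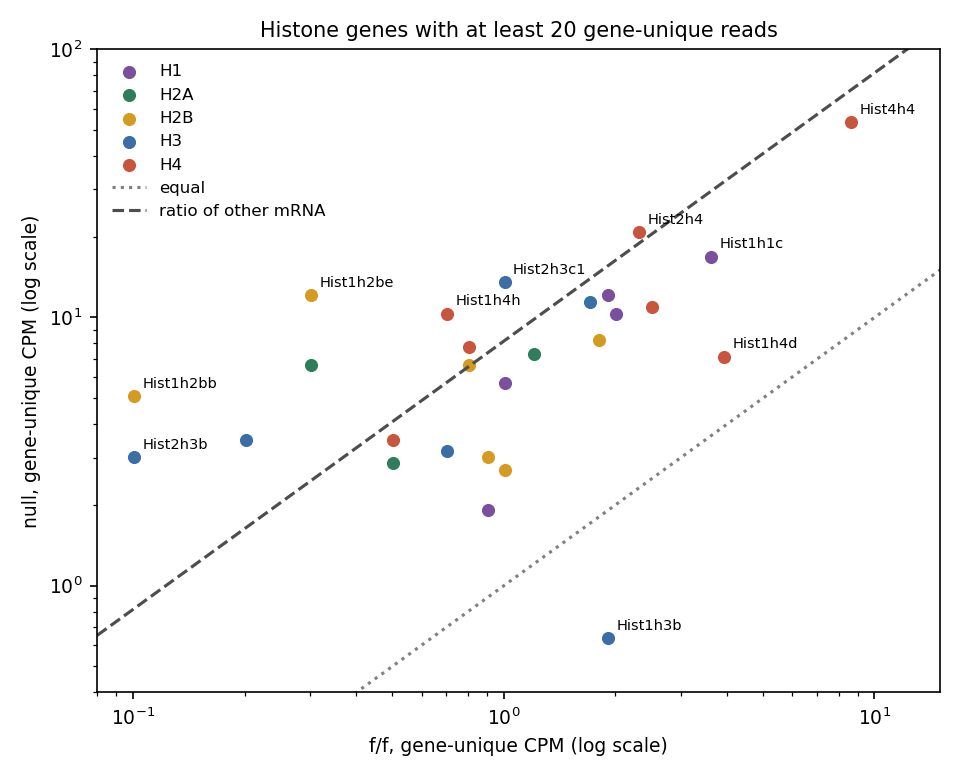
Gene-unique CPM in null against f/f for the 27 members with at least 20 such reads (log axes), coloured by class; the dotted line marks equal levels and the dashed line the ratio of other protein-coding genes without Tmem38b, 8.16. Hist1h3b is the member below the dotted line, at 1.91 and 0.636 CPM, and Hist4h4 has the highest levels, 8.65 and 53.4.

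Genes that act on histone mRNA 3′ ends were read from a fixed list of 23 symbols, of which 20 are in the annotation. Ars2, Zcchc11 and Zcchc6 were not found there under these symbols, so no reads were counted for them. Together the 20 had 78 reads in f/f and 305 in null, a ratio of 6.18 (4.81 to 8.03). Of the 20, Dis3l2 had 0 reads in both libraries. Of the 6 with at least 20 reads, all 6 were more than 2-fold higher in null, beside the 98.9% over all genes. Per read of other protein-coding genes without Tmem38b, 1 was higher and 2 were lower, beside 43.6% and 8.44% over all genes. Slbp, the stem-loop binding protein, had 22 and 49 reads (ratio 3.52, 2.09 to 6.11). Ptbp3 had 8 and 42, the exonuclease gene Xrn1 3 and 30, Cpsf1 6 and 26, Fip1l1 10 and 15, and Upf1 1 and 21. Eri1, an exonuclease known to trim histone 3′ ends, had 3 and 10, and Lsm10 and Lsm11, of the U7 particle, had 1 and 0 and 0 and 8.

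Replication-independent histones, whose mRNAs mostly carry poly(A) tails, gave 81 and 364 reads over 11 genes, a ratio of 7.10 (5.57 to 9.15). The 5 with at least 20 reads, all more than 2-fold higher in null, were H3f3b (29 and 117), H2afz (17 and 79), H2afx (18 and 55), H3f3a (2 and 35) and H1f0 (8 and 35). Over all genes 98.9% were higher. Per read of other protein-coding genes without Tmem38b, 1 of the 5 was higher and 0 lower, beside 43.6% and 8.44% over all genes. Their summed ratio and that of the members (5.51) have overlapping intervals.

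Genes of DNA replication and S phase, the part of the cell cycle in which the members are made, gave 101 and 877 reads over 20 genes, a ratio of 13.7 (11.2 to 17.0). Of these, 14 had at least 20 reads, and all 14 were more than 2-fold higher in null, beside the 98.9% over all genes. Per read of other protein-coding genes without Tmem38b, 9 of the 14 were higher and 0 lower, beside 43.6% and 8.44% over all genes. The median ratio of the 14 was 18.03, beside 6.18 for the 27 members and 14.2 for all genes. They included Mcm7 (32 and 305), Rrm2 (7 and 81), Pcna (17 and 64), Rrm1 (2 and 61), Mcm2 (4 and 45), Tk1 (3 and 41), Mcm5 (1 and 37), Tyms (4 and 34), E2f1 (0 and 33), Cdc6 (0 and 32), Mcm6 (6 and 29), Mcm3 (6 and 24), Mcm4 (2 and 21) and Gins2 (1 and 21). E2f1 and Cdc6, with 0 f/f reads, passed the filter of 20 reads only through null. Such selection tends to raise the counts and the median of the 14. Whether the share of cells in S phase differed between the cultures was not tested.

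Histone chaperones, which carry histones to DNA, gave 37 and 237 reads over 10 genes, a ratio of 10.1 (7.14 to 14.7). Of 6 with at least 20 reads, 5 were more than 2-fold higher in null: Nap1l1 (4 and 63), Ssrp1 (3 and 51), Nasp (5 and 38), Chaf1a (1 and 26) and Hira (2 and 19). Asf1b, with 14 and 11, lay between. Over all genes 98.9% were higher. Per read of other protein-coding genes without Tmem38b, 3 of the 6 were higher and 1 was lower, beside 43.6% and 8.44% over all genes.

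Fragments of marker mRNAs were used to check the label of the cells. Mesenchymal or fibroblast markers gave 175 reads in f/f and 1912 in null. Over both libraries together 11 of 12 genes had reads, Thy1 being at 0. Col1a2 gave the most, 51 and 546, while Nt5e gave 0 and 3, Eng 1 and 13 and Lum 1 and 5. Blood markers gave 0 and 13 (Cd68 0 and 11, with Ptprc, Hba-a1, Hbb-bs and Lyz2 at 0). Endothelial markers gave 4 and 1 (Cdh5, Kdr and Tek at 0), and epithelial markers 0 and 0. Dicer1 mRNA gave 2 and 23 reads, which do not check the genotype, since the deleted part is not given in the labels.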

How the data were processed

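The deposited files list distinct read sequences of each library with raw counts of how often each was seen, with no gene names. Per the labels' protocols, RNA of 15 to 50 nt was cut from a 15% gel. The build was mm9 per the submitters' processing notes. How reads were trimmed is not given in the sources used here. Reads of at least 18 nt were matched, whole and in sense, to GENCODE M21 transcripts (GRCm38), whose coordinates are used. No genome sequence was used, so reads beyond an annotated transcript end were not seen. A read in several members took the position nearest to the stem-loop.

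CPM are counts per 1000000 reads of the file. Shares carry Clopper-Pearson, counts Poisson and ratios exact conditional intervals, at 95%. With 1 library per genotype no test was made. Named genes are the 12 members with most gene-unique reads and the 3 highest and lowest ratios; lists were named for genes with at least 20 reads, and Eri1, Lsm10 and Lsm11 after their values were seen. Members and lists were chosen with earlier results of these data known. Matching was tested on simulated data. The software was scipy 1.17.1, pandas 2.3.3 and numpy 2.4.6 under Python 3.11.15, with figures by matplotlib 3.10.9.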

Additional observations from a re-analysis of the deposited data

How the results depend on the processing

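No paired analysis was possible because each genotype has 1 library. Over the alternatives run, 42 values stayed inside the 95% counting interval of the reported value (counts of genes: within 1.5 times it). Another 56 lay outside it without a change of direction and 10 changed direction, judged by the value and not by its interval. Among these 10, some intervals include equal levels. Per other protein-coding read these were 0.860 to 1.006 for all histone reads, 0.775 to 1.12 for H2B and 0.814 to 1.07 for H4. Without Tmem38b it was 0.677 to 1.0001 for H3. The cause was not tested where a sentence names none. By scale, the histone ratio of 5.51 became 18.6 per read in any transcript, 1.28 per snoRNA and snRNA read, 0.930 per other protein-coding read and 0.675 without Tmem38b. In the same order, H1 gave 11.9, 0.818, 0.593 and 0.431, H2A 29.1, 2.01, 1.46 and 1.06, H2B 18.6, 1.28, 0.931 and 0.676, H3 22.6, 1.56, 1.13 and 0.820, and H4 18.7, 1.29, 0.933 and 0.678. The 25 higher members became 9, 7 and 5 on the last 3 scales, and the 1 lower member 0, 3, 4 and 5 on the 4 scales.

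The histone ratio was 3.62 with each distinct sequence counted once, 7.19 over sequences with at least 2 reads, 8.17 over reads of 24 nt or longer and 6.03 without reads in unrelated genes. Without reads that match outside the members, H1 was 4.73 (also without unrelated genes alone) and H3 4.19. With at least 50 unique reads, 14 of 15 members were higher and 0 lower; with shared reads split equally, 43 of 46 and 0.

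The f/f share over the stem-loop, 24.5%, was 28.8% without reads outside the members, 28.5% without unrelated genes, 16.2% for distinct sequences, 30.9% for at least 2 reads (also 30.9% without the last 3 bases) and 37.8% from 24 nt. The null share of 8.14% was 11.5% from 24 nt and 12.7% without the last 3 bases. The f/f share ending within 5 bases of the motif's end, 23.99%, was 28.1%, 27.9%, 15.4%, 30.5%, 36.4% and, without the last 3 bases, 30.5%; within 2 bases it was 3.89%, since most ends lie 3 bases after it. The null share of 7.41% was 6.37% for distinct sequences, 11.04% from 24 nt, 11.8% without the last 3 bases and 2.11% within 2 bases. Reads of 24 nt or longer, counted as distinct sequences, were 40.7% in f/f and 51.0% in null, and 56.6% in null without unrelated genes. Tails of 2 or 3 T were on 1.25% and 0.709%. The scale without Tmem38b, the removal of unrelated genes, the ratio without Hist4h4 downstream reads and the tails without 36-nt reads were chosen after seeing the data.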
